A study of Mus musculus with 2 samples.

Results

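Macrophage and monocyte genes were examined in the gastrocnemius, a calf muscle, after genetic depletion of PDGFRα-positive mesenchymal progenitors. The 36 genes were chosen by name, as known genes of these cells, and each was taken from the probe whose annotated symbol equals it. All 36 had exactly 1 probe, and all 36 were above background on both arrays, out of 18498 genes that could be compared. One array held muscle RNA from a female Pdgfra-CreER:R26-DTA mouse, called depleted here, and the other from a female wild type:R26-DTA mouse, called control. Both mice carried the R26-DTA allele, received tamoxifen on 5 days from 9 weeks of age, and were killed 2 days after the final injection, at 10 weeks, when muscle was frozen. CreER follows the Pdgfra promoter, so diphtheria toxin A is switched on in any cell in which that promoter is active. The control had no CreER, so the recombinase and the depletion cannot be told apart, nor can genotype, animal and array, because each group was 1 mouse.

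Macrophages are the main phagocytes of healthy muscle. Long-lived resident cells in the connective tissue carry scavenger receptors such as CD163 and the mannose receptor, while monocytes enter from the blood, largely through the chemokine receptor CCR2, and turn into macrophages in the tissue. Survival of both depends on the CSF1 receptor, and mesenchymal progenitors are a known source of its ligand and of monocyte-attracting chemokines. In whole muscle, more macrophages and more RNA per macrophage cannot be told apart.

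The macrophage and monocyte genes were higher in depleted muscle as a group, but the size of the difference varied widely between genes. On a normalised log2 scale (background-corrected with an offset of 50, quantile-normalised), 34 of the 36 had a ratio of depleted over control above 0, against 47.4% of all genes compared. Their median log2 ratio was 0.47, while that of all genes was 0.00. At least 1.5-fold higher were 15 of the 36, against 1.96% of all genes, and at least 2-fold higher were 5, against 0.492%. None of the 36 was at least 1.5-fold lower, against 1.52% of all genes, or 2-fold lower, against 0.427%. The 5 genes past 2-fold were Retnla, Lyz1, Lgals3, Ctss and Lyz2.

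The authors' processed intensities, called processed values below, are linear and have a median of 25 on each array. Across the 36 genes they ran from 3.3 (Cx3cr1) to 1732.3 (Lyz2) in control and from 4.3 to 4337.4, for the same genes, in depleted muscle. On this scale 34 of 36 were again higher, against 48.1% of 17920 genes with a value on both arrays. At least 2-fold higher were 15, against 2.87%, and 0 were at least 2-fold lower, against 1.96%. The median fold was 1.93. The 28 brighter genes, with a mean processed value of at least 25, held 12 of the 15, where 2.69% of all such genes passed, and the 8 dimmer ones held 3, where 3.07% did. This division by brightness was chosen with the values in view. The offset of 50 draws the log2 ratios of dim genes toward 0, which is why processed values are given beside them.

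**Figure D1:**
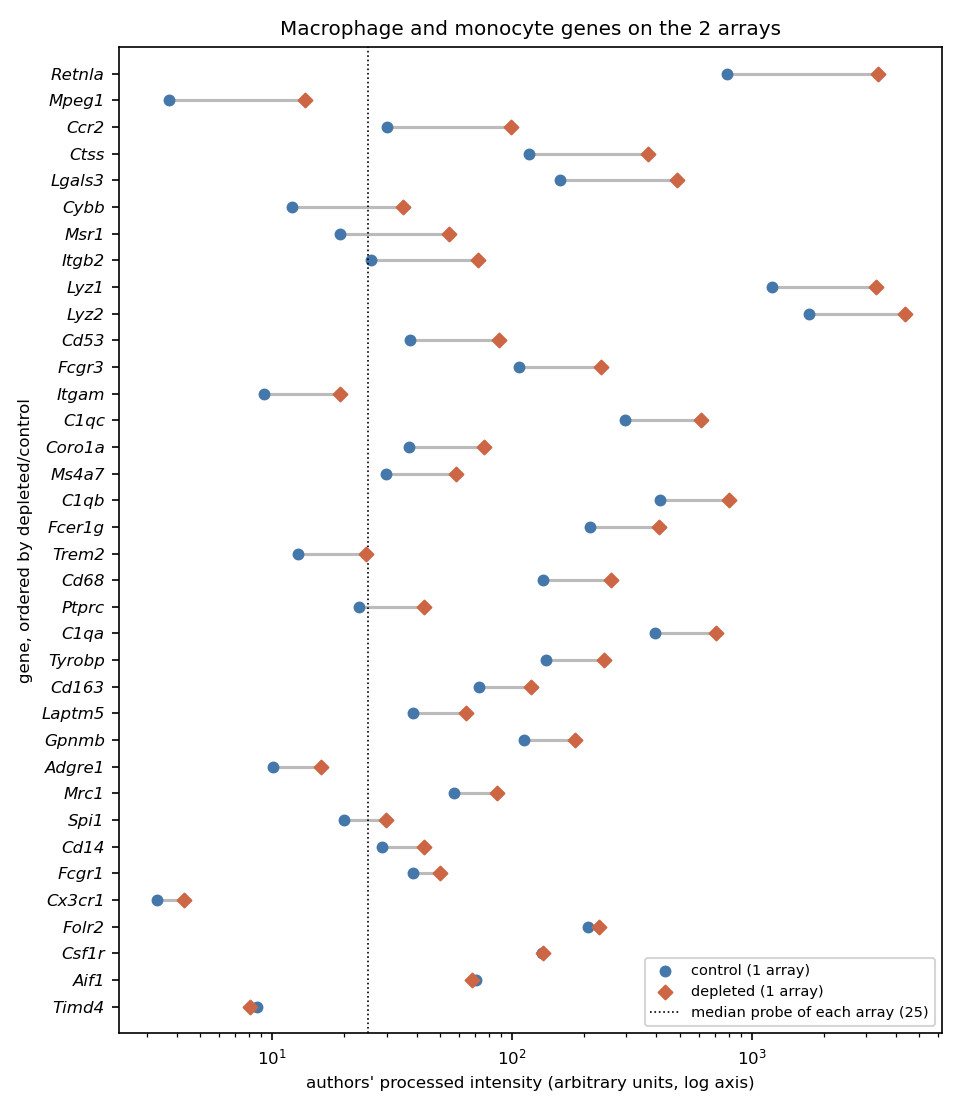
Processed intensity (arbitrary units, log axis) of each of the 36 genes in control muscle (circles, 1 array) and depleted muscle (diamonds, 1 array), ordered by fold. The dotted line is the median of each array, 25. Retnla, at the top, went from 784.8 in control to 3375.2 in depleted muscle, while Csf1r, Aif1 and Timd4, at the bottom, had nearly equal values.

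There is no replicate from which to take the spread between animals, and no test was possible. The technical spread set beside the ratios here is that between different probes of a gene, pooled over dim and bright genes. Over 1102 genes with several probes, the standard deviation of the log2 ratio within a gene was 0.18, and 28 of the 36 macrophage and monocyte genes lay farther than this from 0, against 24.0% of all genes compared. The 8 that did not were Folr2, Timd4, Cx3cr1, Fcgr1, Csf1r, Adgre1, Spi1 and Aif1. On processed values that standard deviation was 0.37, and 32 of the 36 lay beyond it, against 34.4% of all genes; Folr2, Timd4, Csf1r and Aif1 lay within it. It does not cover differences between mice.

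Mesenchymal progenitor genes were lower in depleted muscle on the same arrays. Processed values of Pdgfra were 273.1 in control and 116.6 in depleted muscle (log2 ratio -0.94). All 9 mesenchymal progenitor markers compared were lower, against 9698 of 18498 genes, led by Lum (-1.84), Dpt (-1.23) and Col3a1 (-1.22). These markers were chosen with earlier results of these data known, and depletion, animal and array cannot be told apart. Over all genes, 91 were higher and 79 lower by 2-fold or more, so 53.5% of these were higher, which became 216 and 38 (85.0%) when arrays were scaled to their medians. Myofibre markers had a median of -0.10 over 8 genes, 6 of them lower and 1 higher, and only 1 was at least 1.5-fold lower. Pvalb (-1.25), Myh1 (-0.43) and Mylpf (-0.30) had the largest ratios. With the local background, described below, subtracted, Pvalb was at 8.35, Myh1 at -0.31 and Mylpf at -1.06. In processed values the median of the myofibre markers was -0.50 and 0 of 8 were higher. All 8 were above background on both arrays, with summed processed values of 326176.1 and 228210.8. Cell numbers were not analysed here.

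Genes associated with monocytes had a median of 0.83 over 5 genes on the normalised scale, all 5 of them higher. Among them were the lysozymes, which cleave bacterial cell walls and are abundant in myeloid cells. Lyz2, the lysozyme of macrophages, had processed values of 1732.3 (control) and 4337.4 (depleted), a 2.50-fold difference and a log2 ratio of 1.22. Lyz1, best known from intestinal Paneth cells, had 1208.9 and 3285.3, a 2.72-fold difference (log2 ratio 1.37). Only 38 of the 18498 genes had a higher ratio than Lyz1 and 53 a higher ratio than Lyz2.

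The Lyz1 and Lyz2 probes may not be independent. Both genes are direct neighbours among protein-coding genes in RefSeq (GRCm38.p6), and the 120 bases before each start are closely similar. They are printed to show how alike the neighbouring genes are there, and capitals mark the bases that differ. These bases are not part of the RNA, so they do not show whether the probes share signal.
Lyz1 (GRCm38.p6, chr10:117292869-117292988, minus strand): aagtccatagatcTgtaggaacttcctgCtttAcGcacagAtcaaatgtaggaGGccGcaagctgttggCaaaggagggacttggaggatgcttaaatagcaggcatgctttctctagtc
Lyz2 (GRCm38.p6, chr10:117282273-117282392, minus strand): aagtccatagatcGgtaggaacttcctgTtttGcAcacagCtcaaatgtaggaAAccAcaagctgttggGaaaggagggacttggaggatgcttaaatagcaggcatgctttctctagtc
Of these 120 bases 111, or 92.5%, were identical, and so were 49 of the first 50 transcribed bases. The probes' own sequences were not used here, so how much signal they share was not tested. Counted as 1 gene, the lysozymes left the median of the whole set at 0.44.

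Ccr2, the receptor through which inflammatory monocytes follow CCL2, had processed values of 30.2 (control) and 98.9 (depleted). This was a 3.27-fold difference, with a log2 ratio of 0.83 because the control spot was near the array's median. Cd14, the co-receptor for bacterial lipopolysaccharide, went from 28.7 to 42.8 (1.49-fold, log2 ratio 0.22). Itgam, the integrin chain CD11b of monocytes, macrophages and neutrophils, was dim, at 9.2 and 19.2, a 2.09-fold difference in processed values but 0.21 in log2 ratio. Other genes of monocytes, which were not among the 36, were less uniform: 8 of 10 compared were higher, against 47.4% of all genes, with a median of 0.21. At least 1.5-fold higher were 4, against 1.96% of all genes. The acute-phase haptoglobin gene Hp went from 196.9 to 431.4 (0.92), the calcium-binding S100a4 from 266.7 to 526.7 (0.84) and Plac8 from 26.0 to 86.7 (0.79). With the local background, described below, subtracted, S100a4 was at -0.19 and Plac8 at -0.87, while Hp was at 1.82. Singled out after its values were seen, the chitinase-like gene Chil3 had processed values of 1.7 and 43.7 (0.78). Also singled out after their values were seen were Ly6c genes. Ly6c2, a surface marker of classical monocytes, was at 2248.8 and 2492.0 (0.08). Its neighbour in the family Ly6c1, which endothelium also makes, was at 2096.4 and 2345.4 (0.12). Probes of related Ly6c genes can share signal, which was not tested.

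Genes associated with resident macrophages had a median of 0.21 over 6 genes, of which 5 were higher. That median joins very unlike genes. Retnla, a secreted resistin-like protein of alternatively activated macrophages, had the highest log2 ratio of all 36 genes, 1.99, with processed values of 784.8 (control) and 3375.2 (depleted), a 4.30-fold difference. Only 15 of the 18498 genes had a higher ratio. Adipose tissue is also known to make Retnla; adipocyte markers were higher in 3 of 5, with a median of 0.07, Cidec at -0.32, Adipoq at 0.28 and Plin1 at 0.24, and their summed processed value was 810.5 in control and 930.6 in depleted muscle. Their part in the Retnla difference was not tested. Without Retnla, the other 5 resident-associated genes had a median of 0.11 and none reached 1.5-fold.

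Among those 5 genes, Cd163, the receptor that clears haemoglobin bound to haptoglobin, went from 72.8 to 120.5 in processed values (1.66-fold, log2 ratio 0.44). Mrc1, the mannose receptor CD206, went from 57.4 to 86.6 (1.51-fold, 0.32). Folr2, a folate receptor of resident macrophages, was at 208.3 and 230.4 (1.11-fold, 0.11). Of these scavenger and folate receptors, only Cd163 and Mrc1 lay beyond the spread between probes of a gene. Timd4, a receptor for phosphatidylserine on self-maintaining resident macrophages, was dim and nearly equal, at 8.6 and 8.1 (-0.01). Cx3cr1, the fractalkine receptor, was the dimmest of the 36, at 3.3 and 4.3, and its log2 ratio of 0.02 turned to -0.06 with scaling to the median.

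Further resident macrophage genes outside the 36 were mixed as well. Of 11 compared, 8 were higher, against 47.4% of all genes, 3 were lower, and the median was 0.14. The lectin gene Clec10a went from 126.2 to 281.3 (0.88) and the ficolin gene Fcna from 48.5 to 111.6 (0.67), while Maf, a transcription factor of resident macrophages, went from 189.3 to 131.3 (-0.40). Maf stayed lower with scaling to the median (-0.19). Lyve1, a hyaluronan receptor of perivascular macrophages and lymphatic vessels that was singled out after its value was seen, was at 83.5 and 79.8 (-0.05), and at 0.10 with that scaling. With the local background, described below, subtracted, Maf was at 0.46 and Clec10a at -0.4, while Fcna was at 1.81.

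Monocyte-associated genes therefore had a larger median than resident-associated genes on this scale, 0.83 against 0.21, and in processed values, 1.32 against 0.49, but their ranges overlapped. Monocyte-associated ratios ran from 0.21 to 1.37 and resident-associated ratios from -0.01 to 1.99. With narrower lists of 4 genes each the medians were 0.52 and 0.21. Summed processed values went the other way, from 3009.3 to 7783.6 for monocyte-associated genes (2.59-fold) and from 1135.2 to 3825.1 for resident-associated genes (3.37-fold). Without Retnla the resident-associated sum went from 350.4 to 449.9 (1.28-fold). Lyz1 and Lyz2, whose probes may not be independent, both counted toward the monocyte-associated median. In the further lists described above the contrast was smaller. Other monocyte genes had a median of 0.21 and other resident macrophage genes 0.14, or 0.41 and 0.22 in processed values. Summed processed values of these further lists were 1.13-fold and 1.15-fold higher. Membership of both groups was assigned by hand, and Cx3cr1 and Retnla could be placed elsewhere. Lyz2 and Itgam are also genes of macrophages, so the medians do not separate recruited from resident cells. The difference between the groups was not tested, since genes of 1 pair of arrays are not replicates.

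**Figure D2:**
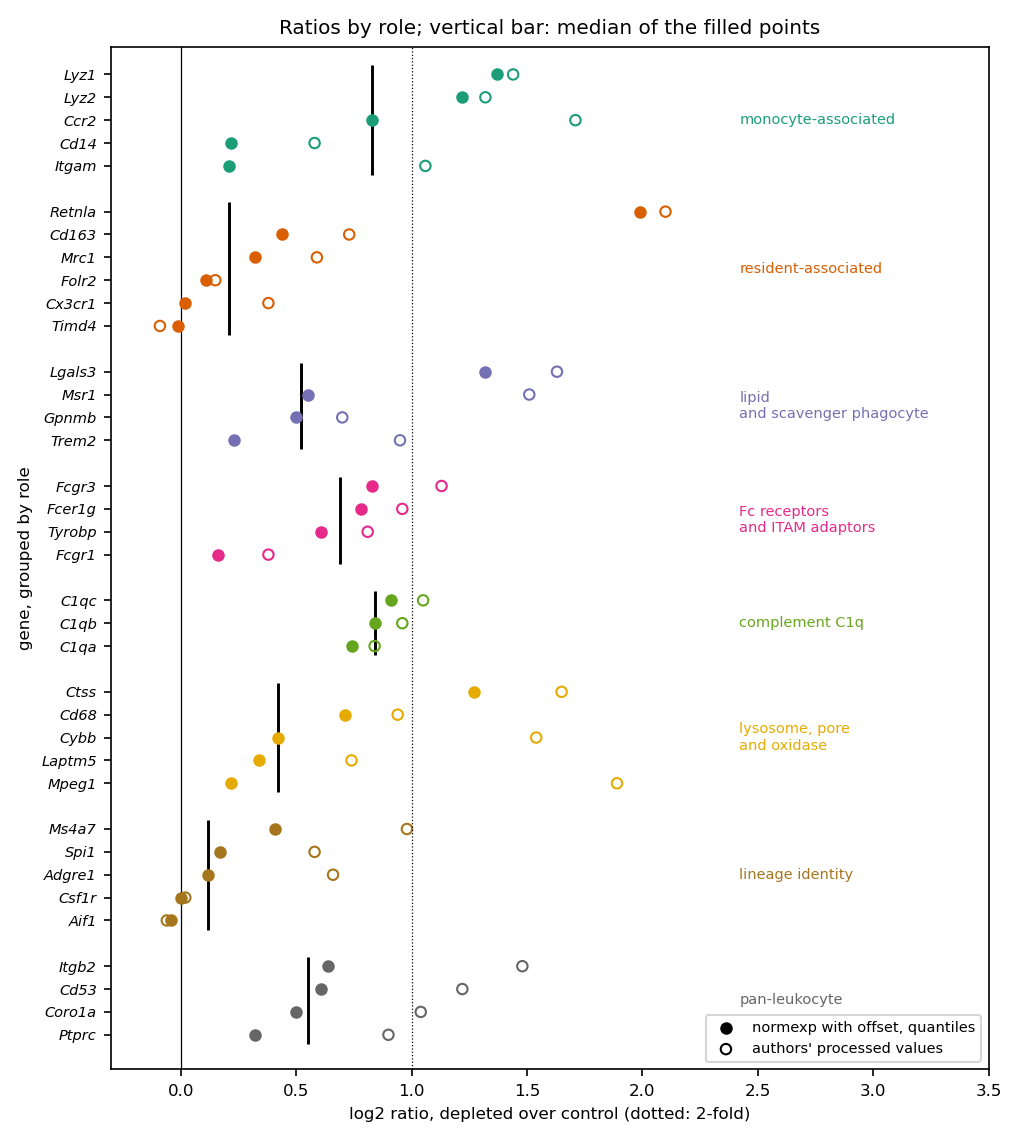
Log2 ratio of depleted over control muscle for each of the 36 genes, grouped by role, on the normalised scale (filled points) and in processed values (open points); 1 array per group. Black bars are medians of the filled points, from 0.12 for lineage identity to 0.84 for complement C1q, and open points lie farthest to the right of filled ones in dim genes such as Mpeg1 and Cybb.

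The C1q chains, which form the recognition molecule of the classical complement pathway and tag dead cells for uptake, had nearly equal ratios on the normalised scale. C1qa had processed values of 395.3 (control) and 707.8 (depleted) (log2 ratio 0.74), C1qb 413.9 and 806.3 (0.84), and C1qc 296.7 and 613.5 (0.91). With the local background, described below, subtracted, the ratios were less alike, at 2.48 for C1qa, 1.63 for C1qb and 0.76 for C1qc. All 3 were past 1.5-fold, with folds of 1.79, 1.95 and 2.07 in processed values. Their genes lie side by side in RefSeq, in the order C1qb, C1qc, C1qa. Tissue macrophages are the main makers of all 3 chains.

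Fc receptors bind antibody-coated targets and signal through adaptors with ITAM motifs. Fcgr3, a low-affinity IgG receptor, went from 106.9 to 234.4 in processed values (2.19-fold, log2 ratio 0.83). Fcer1g, the gamma chain that Fc receptors signal through, went from 211.4 to 409.9 (1.94-fold, 0.78), and Tyrobp, the adaptor DAP12, from 138.4 to 242.2 (1.75-fold, 0.61). The receptor Fcgr3 and both adaptors were thus past 1.5-fold. Fcgr1, the high-affinity IgG receptor, was at 38.6 and 50.2 (1.30-fold, 0.16). Related Fc receptor probes can share signal, which was not tested.

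Phagocyte genes of scavenging and lipid handling were higher in 4 of 4, with a median of 0.52. Lgals3, galectin-3, a lectin of activated macrophages that other cells also make, went from 158.5 to 489.0 in processed values, a 3.09-fold difference (log2 ratio 1.32). Msr1, the class A scavenger receptor, went from 19.2 to 54.5 (2.84-fold, 0.55). Gpnmb, a glycoprotein of lipid-laden macrophages, went from 112.5 to 182.4 (1.62-fold, 0.50). Lgals3 thus stood well above the others on the normalised scale. Trem2, a lipid receptor that signals through the adaptor made by Tyrobp, was dim, at 12.8 and 24.7 (1.93-fold, 0.23).

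Genes of the phagosome and lysosome differed in the same direction. Ctss, cathepsin S, a protease that trims the invariant chain for antigen presentation, went from 117.5 to 370.0 in processed values, a 3.15-fold difference (log2 ratio 1.27). Cd68, a lysosomal glycoprotein widely used to stain macrophages, went from 135.1 to 259.2 (1.92-fold, 0.71). Laptm5, a lysosomal membrane protein of blood cells, went from 38.5 to 64.1 (1.66-fold, 0.34). The remaining pair was dim in control muscle. Cybb, the catalytic subunit of the phagocyte NADPH oxidase, was at 12.1 and 35.1 (2.90-fold, 0.42), and Mpeg1, the pore-forming perforin-2, at 3.7 and 13.7 (3.70-fold, 0.22). Mpeg1 had the second highest fold of the 36 in processed values, but its control spot of 39.2 lay just above the background limit of 37.4, so its fold is poorly determined.

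Genes that mark macrophage identity had a median of 0.12 on the normalised scale, the lowest of the 8 groups there, and none of the 5 reached 1.5-fold. In processed values their median was 0.58, and that of the resident-associated genes was lower, at 0.49. Csf1r, the receptor for CSF1 and IL-34 on which these cells depend, had processed values of 132.7 (control) and 134.5 (depleted), with a log2 ratio of 0.00. Aif1, the actin-binding protein IBA1, was at 70.7 and 67.9 (-0.04, or 0.09 with scaling to the median). Both were above the array's median, so neither was a dim spot. Adgre1, which encodes F4/80, was at 10.1 and 16 (1.58-fold, 0.12), and Spi1, the transcription factor PU.1, at 20.0 and 29.8 (1.49-fold, 0.17). Ms4a7, a membrane protein of macrophages, was at 29.7 and 58.4 (1.97-fold, 0.41). With scaling to the median, Csf1r was at 0.20.

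Genes of all leukocytes were higher in 4 of 4, with a median of 0.55. Itgb2, the integrin chain CD18 that pairs with CD11b, went from 25.8 to 71.9 in processed values (2.79-fold, log2 ratio 0.64), and Cd53, a tetraspanin, from 37.7 to 87.9 (2.33-fold, 0.61). Coro1a, an actin regulator of blood cells, went from 37.2 to 76.6 (2.06-fold, 0.50), and Ptprc, the phosphatase CD45, from 23.0 to 42.8 (1.86-fold, 0.32). Markers of other leukocytes had medians near 0 on the normalised scale. Many of them were dim, where the offset draws ratios toward 0, so these medians say little about such genes. Examples, singled out after their values were seen, are Cxcr2 (processed values 2.5 in control and 2.8 in depleted muscle), Cd3e (2.2 and 2.6) and Flt3 (2.9 and 2.4). Neutrophil markers had a median of 0.02 over 13 genes, none past 1.5-fold, with S100a8 at 0.34, S100a9 at -0.23 and Retnlg at 0.11. Their summed processed value was 384.0 in control and 370.6 in depleted muscle, of which S100a9 alone gave 224.6 and 183.3. Lymphocyte and NK markers had a median of 0.00 over 13 genes, with Cd2 at 0.29, Cd4 at -0.17 and Cd79a at -0.11, and sums of 118.4 and 126.9; Cd3g was below background on both arrays. Dendritic cell markers had a median of 0.01 over 7 genes, with Batf3 at 0.15, Itgax at 0.10 and Cd209a at -0.06, and sums of 82.7 and 94.1; Clec9a was below background on both arrays. In processed values these medians were 0.16 for neutrophil, 0.17 for lymphocyte and NK and 0.24 for dendritic cell markers, against 0.95 for the 36 genes. At least 2-fold higher on that scale were 0 of 12 neutrophil markers, against 2.87% of all genes. So were 1 of 12 lymphocyte and NK markers (Cd2, 2.37-fold) and 1 of 6 dendritic cell markers (Itgax, 2.02-fold). Counts over so few genes say little beside that share. S100a8 was 1.86-fold higher. The summed processed value of the 36 macrophage and monocyte genes was 6742.5 in control and 16751.5 in depleted muscle, 2.48-fold higher. Without Retnla and the lysozymes it was 3016.5 and 5753.6, 1.91-fold higher.

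**Figure D3:**
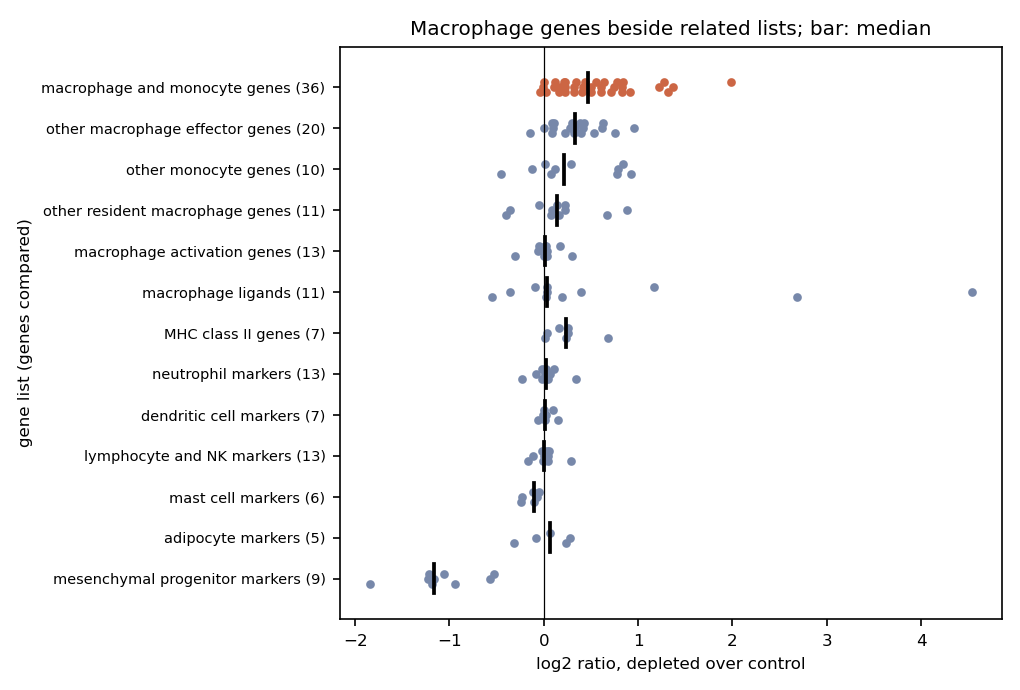
Log2 ratio of depleted over control muscle on the normalised scale for every compared gene of the macrophage and monocyte set and of related lists, with the number of genes in brackets and the median as a bar; 1 array per group. The 36 genes have a median of 0.47, other macrophage effector genes 0.33, and neutrophil, dendritic and lymphocyte markers 0.02, 0.01 and 0.00.

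Effector genes of macrophages outside the 36 were mostly higher too: 18 of 20 compared were higher, against 47.4% of all genes, with a median of 0.33. At least 1.5-fold higher were 4, against 1.96% of all genes. Ctsd, the lysosomal protease cathepsin D, which muscle fibres also make, went from 3940.1 to 7701.4 in processed values (0.96). The leukocyte surface genes Cd52 and Cd48 went from 55.6 to 134.1 (0.75) and from 28.6 to 75.8 (0.63). Of 13 genes of macrophage activation compared, 0 reached 1.5-fold in either direction on the normalised scale and the median was 0.01. Of all genes, 1.96% were at least 1.5-fold higher and 1.52% lower. Retnla (1.99), described above as a gene of alternatively activated macrophages, was counted with the resident-associated genes and is not among these 13. In processed values the median of the 12 with a value on both arrays was 0.23, and 0 of 12 were at least 2-fold higher, against 2.87% of all genes. On that scale Tlr4 was at 1.77-fold and Tlr2 at 1.63-fold. The prostaglandin synthase gene Ptgs2 was at 125.7 and 91.7 (-0.31), and the receptors Tlr4 and Tlr2 were at 23.9 and 42.4 (0.30) and at 13.4 and 21.9 (0.17). With the local background, described below, subtracted, Ptgs2 was at 0.47, Tlr4 at 0.96 and Tlr2 at 1.12. Several of the 13 were close to background, where the offset draws ratios toward 0. Among them were the classical and alternative activation genes Nos2 and Arg1, at 2.6 and 2.7 and at 2.6 and 3.9. Tnf was at 1.6 and 2.1 and Ccl4 at 1.8 and 2.4. Nos2, Arg1, Tnf and Ccl4 were singled out after their values were seen.

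Ligands of the receptors described above did not differ in 1 direction. The CCR2 ligand Ccl2 went from 21.8 to 1822.4 in processed values (log2 ratio 4.54) and Ccl7 from 3.5 to 330.2 (2.68), and Ccl8 went from 26.1 to 129.9 (1.17). Of the ligands of Csf1r, singled out after their values were seen, Csf1 was lower and Il34 lay within the spread between probes of a gene. Csf1, the main growth factor of macrophages, went from 775.1 to 522.4, 1.48-fold lower (-0.55, or -0.24 with scaling to the median). Il34 was at 39.4 and 33.5 (-0.09). With the local background, described below, subtracted, Csf1 was at -0.01 and Il34 at 0.39. The fractalkine gene Cx3cl1, likewise singled out, was near background, at 4.9 and 6.3 (0.03). Higher values of the receptor Ccr2 and of its ligands thus stood beside an almost equal Csf1r and a lower Csf1.

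Promoters were searched for short motifs of factors that act in myeloid cells, in the window from 250 bases before to 50 bases after each start in RefSeq (GRCm38.p6). It held an entry for 28 of the 36 genes; Cd14, Msr1, Tyrobp, C1qa, Csf1r, Adgre1, Spi1 and Itgb2 had none. The PU.1 motif GAGGAAGT, on either strand, was found in 4 of the 28 (14.3%) and in 3.69% of 27025 genes. The composite motif bound by PU.1 together with IRF factors was found in 4 (14.3%; Folr2, Timd4, Cd68 and Cybb) and in 3.16% of genes, and the C/EBP motif TTNNGCAA in 5 (17.9%; Lyz1, Retnla, Trem2, Fcgr3 and Cd68) and in 12.2%. The PU.1 motif and the composite motif share the ETS core letters GGAA and can overlap. A match is a description of letters, not of binding.

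The 4 promoters with the PU.1 motif belong to genes of very different ratios, from 0.61 for Cd53 to 1.99 for Retnla, and 100 bases of each are shown so that the motif can be seen in place. Capitals mark the motif, which in all 4 lies on the strand opposite to the gene and therefore reads as its reverse complement. It begins 198 bases before the start in Retnla, 195 before it in C1qc, 2 before it in Ctss, and 6 bases after it in Cd53.
Retnla (GRCm38.p6, chr16:48842365-48842464, plus strand): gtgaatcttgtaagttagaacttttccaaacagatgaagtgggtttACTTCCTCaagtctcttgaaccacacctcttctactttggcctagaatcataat
C1qc (GRCm38.p6, chr4:136893056-136893155, minus strand): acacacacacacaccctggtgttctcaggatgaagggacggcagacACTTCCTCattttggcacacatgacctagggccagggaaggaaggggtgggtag
Ctss (GRCm38.p6, chr3:95526692-95526791, plus strand): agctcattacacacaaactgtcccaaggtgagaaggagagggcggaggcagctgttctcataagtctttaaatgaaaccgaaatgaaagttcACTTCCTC
Cd53 (GRCm38.p6, chr3:106790136-106790235, minus strand): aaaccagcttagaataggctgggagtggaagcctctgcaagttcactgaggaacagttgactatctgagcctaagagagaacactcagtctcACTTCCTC
Of the 5 genes past 2-fold, Retnla and Ctss thus held this motif, while Lyz1, Lyz2 and Lgals3 did not hold these letters in the window.

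The direct spot readings, before any normalisation, were brighter on the depleted array for all 36 genes, and the median probe was too, at 59.8 against 53.3. Lyz2 read 1397.5 on the control and 4658.4 on the depleted array, Retnla 653.0 and 3633.2, Ctss 128.6 and 431.2, and Csf1r 140.5 and 180.2. The spot files also hold a local background reading, which tracked the spot it surrounds (Spearman correlations over probes of 0.941 in control and 0.972 in depleted muscle, given as a description). For Lyz2, Trem2 and Gpnmb it exceeded the spot itself on the depleted array. Subtracting it left 27 of the 36 genes higher and a median of 0.51, and put Lyz2, Itgam, Cd163, Folr2, Trem2, Gpnmb, Adgre1, Spi1 and Ptprc below 0.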

How the data were processed

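Total RNA of 1 control and 1 depleted muscle was amplified, labelled with Cy5 (per the labels' protocols) and hybridised to 1-colour arrays. Per the file headers, the deposited spot intensities are median pixels at 635 nm joined from 3 scan gains. The authors also deposited processed intensities; set against the spots, these are the spot minus about the blank mean (36.2 and 37.0), times 1.27 for control and 0.939 for depleted. No tool or version for these steps is given in the sources used here.

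Spot intensities were corrected with normexp (limma 3.58.1, R 4.3.3, offset 50), set to log2 and quantile-normalised over 23473 probes. A gene was represented by its brightest probe. Background was the blank mean plus 2 SD (37.4 and 38.5), and genes above it on at least 1 array were compared; an array below it was set to its lowest value above it. Symbols came from the platform annotation: 20690 probes had exactly 1, and 2783 were left without one, which would include any with several. By Entrez gene 20556 matched RefSeq, with 0 symbols changed. The code recovered known differences in test data. Python 3.11.15, numpy 2.4.6, pandas 2.3.3 and matplotlib 3.10.9 were used.

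With 1 array per group no p-value was computed, and precision is limited by the number of arrays. The genes, lists, alternatives and naming rule were chosen with earlier results of these data known. By that rule all 36 genes are named, and of other lists up to 3 with the largest ratios, besides Pdgfra and Ccl2; genes named outside it are marked as singled out after their values were seen. Results were repeated with cyclic loess, scaling to the median, an offset of 16, uncorrected spots, subtraction of blanks or of the local background, the processed values, 3 filters on dim genes, averaged probes, other thresholds and narrower lists. Separation by brightness and leaving out Retnla were added after seeing the data.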

Additional observations from a re-analysis of the deposited data

How the results depend on the processing

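No paired analysis was possible because a single array stood for each genotype. A value is called moved here where it shifted by at least 0.18, the standard deviation between probes of a gene, or where a count changed over 1.5 times. The median of the 36 genes (0.47) moved to 0.68 with an offset of 16, 0.93 with blanks subtracted and 0.95 in processed values. Their count past 2-fold (5) was 8, 15 and 15 in these settings, 14 with the local background subtracted, 10 with scaling to the median and 1 at 3-fold, by construction. The count past 1.5-fold (15) was 27 with blanks subtracted and 28 in processed values. The monocyte-associated median (0.83) was 1.24 with an offset of 16, 1.25 with blanks subtracted, 1.32 in processed values, 0.39 with the local background subtracted, 1.03 over the brighter genes (median intensity or above) and 0.52 with the narrow list. The resident-associated median (0.21) was 0.48 with blanks subtracted, 0.49 in processed values and 0.40 with scaling to the median. With the local background subtracted, Lyz2 reversed to -7.36, where the local reading exceeded the spot on the depleted array, and the lipid and scavenger median to -0.32. Causes not stated were not tested. Of 456 values of single genes and other role groups, 330 stayed, 124 moved and these 2 reversed; a reversal is counted only for a gene at least 1.5-fold apart or for a group's median. Among genes below that, the local background turned 10 more in sign (Itgam, Cd163, Folr2, Trem2, Gpnmb, Adgre1, Spi1 and Ptprc to below 0, Aif1 and Timd4 to above 0), and scaling to the median turned Aif1 and Cx3cr1. Signal over background limits dim genes: 6 of the 36 were below the median intensity.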

Other observations

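MHC class II genes, which present antigen on macrophages, dendritic cells and B cells, were higher in 7 of 7, against 47.4% of all genes compared. Their median log2 ratio was 0.24. H2-DMa, which helps load peptides, went from 96.5 in control to 191.5 in depleted muscle in processed values (0.68). The other 6 stayed below 1.5-fold, with H2-Eb1 and H2-DMb1 at 0.26. The beta and alpha chains H2-Ab1 and H2-Aa, singled out after their values were seen, were at 0.16 and 0.01, both within the spread between probes of a gene. The protease Ctss, which acts in the same pathway, thus had a larger ratio (1.27) than any of these genes on the normalised scale. Subtracting the local background put H2-DMa at -2.5, H2-Ab1 at -0.52 and Cd74, singled out after its values were seen, at -2.84. The others stayed above 0, with H2-Eb1 at 2.06, H2-DMb1 at 1.24 and H2-Aa at 0.97.

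Mast cell markers were lower in 6 of 6, against 9698 of 18498 genes compared, with a median of -0.10 and none past 1.5-fold on the normalised scale. Their summed processed value was 300.2 in control and 241.5 in depleted muscle. The proteases Mcpt4 and Cpa3 were at -0.24 and -0.23, and Cma1 was at -0.11. Only Mcpt4 and Cpa3 lay beyond the spread of 0.18 between probes of a gene on the normalised scale. Scaling to the median put Cma1 at 0.08. In processed values the median was -0.46, and Tpsb2 and Kit, singled out after their values were seen, were 1.58-fold lower (12.2 to 7.7) and 1.54-fold lower (8.6 to 5.6).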
